A study of Mus musculus with 3 samples.

Results

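Histone genes were taken from the RNA-seq profile of mouse melan-a cells by their symbols, namely those that begin with Hist1h to Hist4h (the replication-dependent genes, here called cluster genes) and those that begin with H2af, H3f3, H1f or H2b (the replacement or variant genes). The rule itself used no measured value, although it was set with earlier results of these data known. It gave 79 of the 22698 genes with a value, of which 67 were cluster genes and 12 were replacement genes, and no gene with a symbol in H2b was among them. Another 10 annotated genes fit these names and were not analysed here. They include H1f0, H3f3c, Hist1h2aj and Hist2h3c1.

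Melan-a is an immortalized line of pigmented mouse melanocytes, and the labels give its source as Ink4a-ARF-/- mice on the C57BL/6J strain background. The cells were untreated and were grown with fetal bovine serum, a phorbol ester and cholera toxin, and the 3 libraries labelled 1, 3 and 4 were described as biological replicates. All 3 libraries came from this 1 line and 1 condition, so no groups of samples could be compared and no test was run. Values are FPKM (fragments per kilobase of gene length, scaled to the depth of the library) in replicates 1, 3 and 4, in that order, followed by the mean ± SD (n = 3), and the SD measures only the spread between these 3 libraries.

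The nucleosome is built of pairs of histones H2A, H2B, H3 and H4, and the linker histone H1 binds where the DNA enters and leaves it. Cluster genes supply these proteins in bulk while DNA is copied. Their mRNAs usually end in a short stem-loop instead of a poly(A) tail, and that stem-loop is bound by SLBP. Replacement genes are transcribed throughout the cell cycle, usually contain introns, give polyadenylated mRNAs and encode the variants that are placed in chromatin outside replication. The libraries were made with a kit that captures poly(A) RNA, so the levels below are those of polyadenylated molecules and of whatever else was carried along. How much cluster histone mRNA without a tail these cells contained was not measured.

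The melanocyte identity was checked on 7 markers, all of which were at 22.1 FPKM or more, with Tyrp1 at 3144 FPKM and Dct at 1412 FPKM. Summed markers of other cells were low, at 0.36 to 0.7 FPKM for 4 keratinocyte genes, 1.49 to 1.85 FPKM for 4 fibroblast genes, 0.76 to 1.6 FPKM for 3 leukocyte genes (Ptprc and Cd3e at 0), 0.01 FPKM for 2 endothelial genes and 0.01 to 0.05 FPKM for 3 germ cell genes. All 9 genes of DNA replication and cycling that were checked were above 10 FPKM, for example Pcna at 68.4 FPKM and Mcm2 at 47.4 FPKM. Of all genes, 23.6% had a mean of at least 10 FPKM. The spread between libraries differed among the 9, with Mki67 at 24.89, 14.08 and 37.4 FPKM and Pcna at 69.85, 66 and 69.41 FPKM. Cdkn2a, the locus that the labels give as Ink4a-ARF-/-, was at 19.24, 16.49 and 24.32 FPKM, so reads were counted for this gene. Whether these values go against the label cannot be told from them. The exons removed in the line were not given in the sources used here, and a value for the whole gene does not show which exons were read. Depth, estimated from the whole-read steps of short genes and on the authors' scale, was 53900000, 46900000 and 66300000 reads.

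The stem-loop is shown first, since its sequence sets the cluster genes apart from other genes. It was searched as the histone stem-loop consensus of 16 bases, which begins with GG, ends with CC and has a loop rich in T, on the strand of the gene only and with both arms of 6 bases fully paired around a loop of 4 bases. In the lines below the capitals mark the paired arms, the lower case marks the loop, and the strand is that of the gene in mm9.

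Hist1h1c, chr13:23831381-23831396, plus strand: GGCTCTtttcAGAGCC
Hist1h2bb, chr13:23839072-23839087, plus strand: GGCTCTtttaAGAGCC
Hist1h3g, chr13:23627758-23627773, plus strand: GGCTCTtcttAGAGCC
Hist2h2ac, chr3:96024341-96024356, minus strand: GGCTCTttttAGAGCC
Hist1h4h, chr13:23623327-23623342, plus strand: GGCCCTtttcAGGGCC
Hist1h4i, chr13:22132835-22132850, minus strand: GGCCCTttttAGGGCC
Hist1h4a, chr13:23852669-23852684, minus strand: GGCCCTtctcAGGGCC
Hist1h4b, chr13:23849235-23849250, plus strand: GGTCCTtttcAGGACC
H2afx, chr9:44143323-44143338, plus strand: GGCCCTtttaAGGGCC

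These are the 8 sequences found within 150 bases after the stop codon of cluster genes, and the one of H2afx. Of the 66 cluster genes with an annotated stop codon, 62 had a stem-loop there, against 3 of 21794 genes that are not histone genes by these symbols (0.0138%). It began 21 to 58 bases after the stop codon, with a median of 30.5 bases. The form shown for Hist1h1c was shared by 38 genes for H1, H2A, H2B and H3, and the form shown for Hist1h2bb by 9 more of them. The form shown for Hist1h4h was found in 8 genes, all for H4. The Hist1h4i form was shared with Hist2h4 and the Hist1h4b form with Hist1h4j, so none of the sequences was shared between an H4 gene and a gene for another histone. No stem-loop of this form was found after the stop codon of Hist1h2al, Hist1h2an, Hist2h2bb or Hist2h2be, and no match says only that these letters are not in this window. Hist2h3c2, annotated as a pseudogene with no stop codon, held the sequence within its transcript.

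Most cluster genes were at low levels in these libraries, and a few were not. Over all genes of the files, 45.1% had a mean of at least 1 FPKM. Of the cluster genes, 8 of 67 (11.9%) did, and of the replacement genes 9 of 12 (75%). At least 10 FPKM was reached by 23.6% of all genes, by 2 cluster genes and by 8 replacement genes. The median of the gene means was 0.173 FPKM for cluster genes and 18.4 FPKM for replacement genes, and the median of all genes was between 0.26 and 0.3 FPKM in the 3 libraries. The median level of the cluster genes on the log2(FPKM + 1) scale minus that of the replacement genes was -4.12, -4.30 and -3.70, a mean difference of -4.04 ± 0.31 (SD, n = 3). The direction was the same in every library, and the difference between libraries was small beside it.

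**Figure D1:**
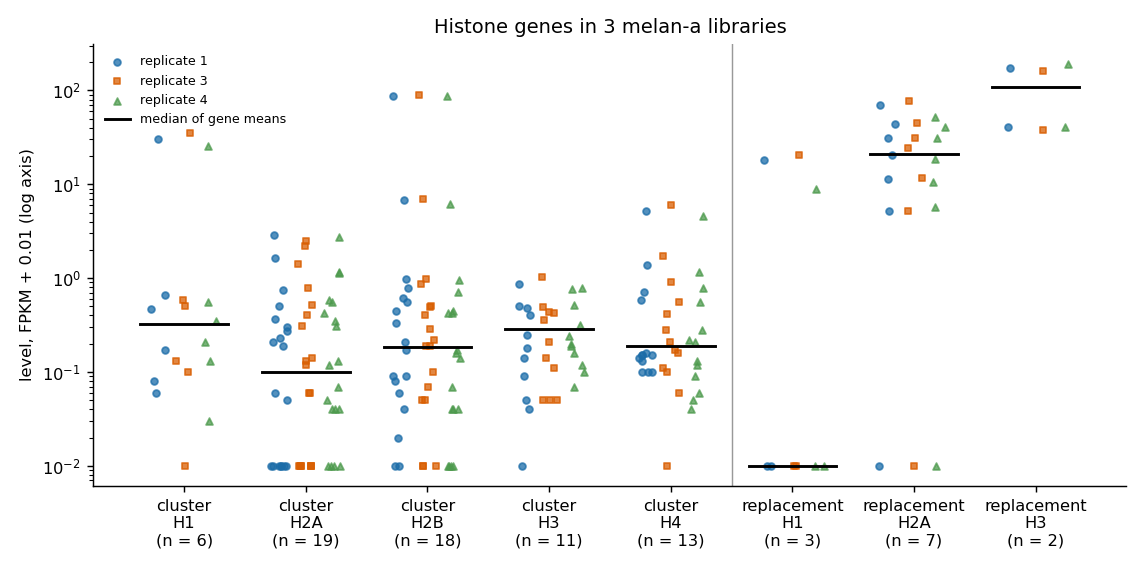
Level of every histone gene in the 3 libraries, in FPKM with 0.01 added on a log axis, split by class and by the histone encoded. Each symbol is 1 gene in 1 library, the marker shape gives the replicate, and the black line is the median of the gene means. Most cluster genes lie below 1 FPKM in all 3 libraries, while 9 of the 12 replacement genes lie above 5 FPKM and the other 3 are at 0.

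The sum over all 79 genes made up 0.148% of all FPKM. Cluster genes gave 26.5%, 27.7% and 26.3% of that sum (26.9% ± 0.8), although they were 67 of the 79 genes. Without the division by gene length (FPKM times length) their share was 11.4%. Annotated lengths were used for this, since those behind the FPKM of genes with several transcripts were not given. Most of the cluster part came from 2 genes, with Hist1h2bc at 58.3% ± 2.4 and Hist1h1c at 20.2% ± 2.1 of it. The 8 genes of at least 1 FPKM together gave 91.0% ± 0.2. The remaining 59 genes summed to 671, 615 and 832 estimated reads, with a median of 4.34 reads per gene and library, against 3432, 3073 and 4222 reads for Hist1h2bc alone. A level of 3 reads was taken as the smallest that can be told from 0, and 26 cluster genes had a mean under that of 3 reads in the shallowest library. Differences among these 26 genes were therefore not detectable at this depth.

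H2B was the histone with the highest cluster gene. Hist1h2bc (ENSMUSG00000018102, chr13:23776068-23784357, plus strand, mm9), which encodes a common form of H2B, was at 86.51, 89.03 and 86.53 FPKM (87.4 ± 1.4). It ranked 705 of all genes by its mean and gave 89.1% of the summed FPKM of the 18 cluster H2B genes. Next among them was Hist2h2be (chr3:96025044-96027661), another H2B gene, at 6.73, 6.99 and 6.19 FPKM (6.64 ± 0.41), so the first exceeded the second 13.2 ± 0.7 times. No library of either gene came near the other. The cluster gene just below 1 FPKM was the H2B gene Hist1h2bg at 0.78, 0.96 and 0.95 FPKM, followed by Hist1h2be, a further H2B gene, at 0.97, 0.85 and 0.71 FPKM. Their ranges overlap, so their order is not set by these libraries. The other 14 cluster H2B genes were lower still, and 7 of the 18 had a mean under that floor.

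The annotated transcript of Hist1h2bc differs from that of a typical cluster gene. Its first exon (chr13:23776068-23776490) ends 9 bases after the stop codon, and the second (chr13:23784045-23784357) lies beyond an intron of 7554 bases. The stem-loop, with the same letters as that of Hist1h1c above, begins 26 bases past the end of exon 1 and is thus in the annotated intron, while the transcript ends with a poly(A) signal. Only 13.4% of the 50-base words of exon 1 occur once in the genome, against 100% of those of exon 2. The deposited value is for the whole gene and does not show which exon the reads fell in.

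H1 was next. Hist1h1c (ENSMUSG00000036181, chr13:23830676-23832235), the gene of the linker histone H1.2, was at 30.53, 35.25 and 25.59 FPKM (30.5 ± 4.8) and gave 95.9% of the summed FPKM of 6 cluster H1 genes. The H1.4 gene Hist1h1e was at 0.65, 0.57 and 0.34 FPKM, so Hist1h1c exceeded it 47.0, 61.8 and 75.3 times. Among the other H1 genes only the H1.3 gene Hist1h1d had a mean above 0.5 FPKM, at 0.46, 0.5 and 0.55 FPKM. Hist1h1c has 1 exon of 1560 bases, which holds both the stem-loop and, at its end, a poly(A) signal.

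H2A, H3 and H4 cluster genes were lower. Hist3h2a, an H2A gene outside the large cluster, was at 2.88, 2.48 and 2.76 FPKM (2.71 ± 0.21), and 708 of its bases overlap Trim17 on the same strand. Hist2h2aa2 was at 1.61, 2.17 and 1.15 FPKM (1.64 ± 0.51) and Hist2h2aa1 at 0.74, 1.4 and 1.12 FPKM (1.09 ± 0.33). These last H2A genes are copies without any 50-base word of their own, so their separate levels are uncertain. On the same strand, 562 of the 578 bases of Hist2h2aa1 overlap Hist2h3c1, and Hist2h2aa1 was the cluster gene just above 1 FPKM. For H4, Hist1h4i was at 5.18, 5.99 and 4.61 FPKM (5.26 ± 0.69) and Hist1h4h at 1.38, 1.72 and 1.16 FPKM (1.42 ± 0.28), a ratio of 3.74 ± 0.25 between genes for the same protein. The other 11 H4 genes were below 1 FPKM. None of the 11 cluster H3 genes reached a mean of 1 FPKM, and the highest was the pseudogene Hist2h3c2 at 0.86, 1.01 and 0.51 FPKM (0.793 ± 0.257).

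**Figure D2:**
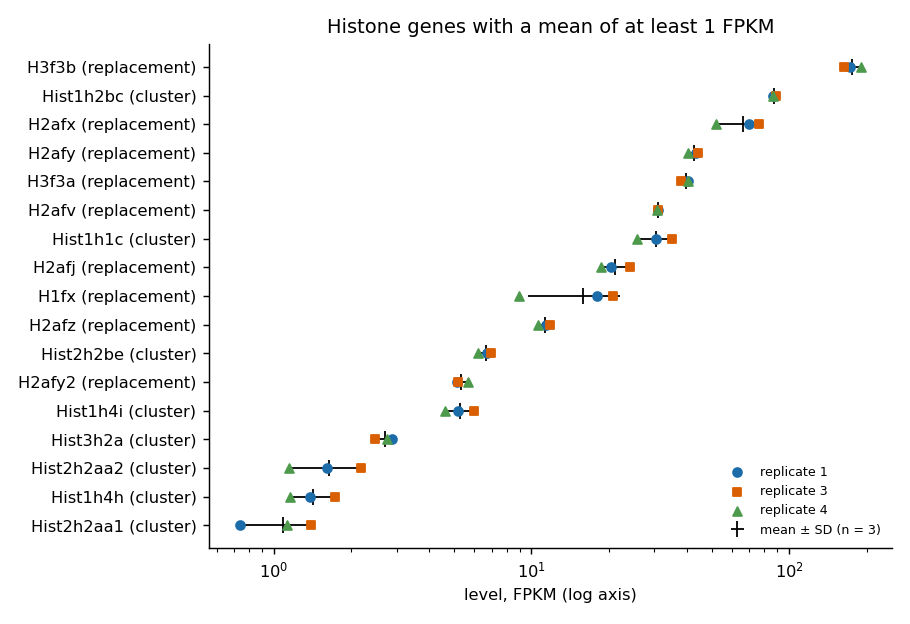
The 17 histone genes with a mean of at least 1 FPKM, in FPKM on a log axis, with 1 marker for each replicate and the mean ± SD (n = 3) in black. Replacement genes take 5 of the 6 highest places, Hist1h2bc lies second, and Hist1h1c overlaps H2afv.

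Among the replacement genes, those for H3.3, the H3 variant placed at active genes and at heterochromatin outside replication, led the list. H3f3b (ENSMUSG00000016559, chr11:115883226-115889276, minus strand) was at 171.78, 162.86 and 190.79 FPKM (175.1 ± 14.3) and ranked 292 of all genes. H3f3a (ENSMUSG00000060743, chr1:182730963-182744074, minus strand), which encodes the same protein, was at 40.62, 37.94 and 40.58 FPKM (39.7 ± 1.5), with 798 of its bases antisense to other annotated genes. H3f3b exceeded H3f3a 4.23, 4.29 and 4.70 times (log2 ratio 2.14 ± 0.08). Together they exceeded the sum of all 11 cluster H3 genes 73.2, 62.2 and 68.9 times, so cluster genes gave 1.45% ± 0.12 of H3 mRNA levels as seen in these libraries.

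H2A variants followed. H2afx, whose H2A.X protein is phosphorylated at DNA breaks, was at 69.79, 76.44 and 52.02 FPKM (66.1 ± 12.6). H2afy, the gene of macroH2A1, a variant with a large extra domain that is enriched on silent chromatin, was at 43.41, 44.4 and 40.45 FPKM (42.8 ± 2.1), while H2afy2, the gene of macroH2A2, was at 5.14, 5.2 and 5.66 FPKM (5.33 ± 0.28). Their ratio was 8.04 ± 0.78. The pair of H2A.Z genes, whose variant marks promoters, were H2afv at 30.95, 30.86 and 30.82 FPKM (30.88 ± 0.07) and H2afz at 11.39, 11.79 and 10.63 FPKM (11.3 ± 0.6), with H2afv the higher by 2.72, 2.62 and 2.90 times. Of their 50-base exon words, 100% for H2afv and 59.4% for H2afz occur once in the genome. The part of this in their ratio was not tested. H2afj, the gene of the H2A.J variant, was at 20.39, 24.09 and 18.63 FPKM (21.0 ± 2.8). The H2A variants together exceeded the 19 cluster H2A genes 22.7 ± 2.0 times. H2afx has 1 exon with both a stem-loop, shown above, and a poly(A) signal at its end. It was the only replacement gene with the stem-loop. Of the 16 cluster genes with such a signal, 12 also held the stem-loop in an annotated transcript.

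Of the replacement H1 genes, H1fx, the gene of the linker variant H1X, was at 17.96, 20.63 and 8.94 FPKM (15.8 ± 6.1). Its replicate 4 value lay apart from the other values. Cluster genes gave 67.6% ± 6.4 of the summed FPKM of the H1 genes analysed. The replacement part of this sum came from H1fx alone. No value was matched to the replacement H1 gene H1f0, and 374 genes with a value had no symbol in the annotation used. The cluster share of all H1 mRNA thus cannot be told. The share was highest in replicate 4, the library in which H1fx was lowest. H1fnt and H1foo, known from sperm and oocyte respectively, and H2afb1, a testis variant, were listed at 0 in every library.

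In the order of means, H3f3b, Hist1h2bc and H2afx came first, and no range of these 3 genes overlapped another. H2afy, H3f3a, H2afv and Hist1h1c followed. The lowest value of H2afy (40.45 FPKM) was under the highest of H3f3a (40.62 FPKM), and the range of Hist1h1c took in all values of H2afv. H2afj and H1fx overlapped, the range of H1fx took in that of H2afz, and H2afy2 overlapped Hist1h4i. Only 3 cluster genes had a mean above that of H2afy2, the lowest replacement gene that was not at 0.

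Summed over both classes, the levels differed widely between histones that form the nucleosome in equal amounts. The H3 sum was 218.0 ± 15.5 FPKM, that of H2A 185.2 ± 17.9 FPKM, that of H2B 98.0 ± 2.1 FPKM and that of H4 9.23 ± 1.21 FPKM. H2B and H4 had no replacement gene among those analysed. Of the cluster sum, 65.4% was H2B, 21.1% H1, 6.13% H4, 5.20% H2A and 2.11% H3.

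Histone genes known from germ cells gave little signal. Of the 6 such members, Hist1h1t, the testis H1, was at 0.16, 0.12 and 0.12 FPKM, and Hist1h2aa, Hist1h2ba, H1fnt, H1foo and H2afb1 were at 0. Over all genes, 31.4% were at 0 in every library. The other cluster genes at 0 throughout were Hist1h2ap and Hist1h2bq, neither of which has a 50-base word found once in the genome.

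Of the 67 cluster genes 55 have a Hist1 symbol, and 54 of these lie in 2 blocks on chromosome 13. The other, the H2A gene Hist1h2al (chr13:51298057-51298434), lies apart from both and was at 0, 0 and 0.04 FPKM. In a block of 23 genes (chr13:21807632-22135545) the median was 0.083 FPKM and only Hist1h4i was above 1 FPKM. In a block of 31 genes (chr13:23622919-24026720) the median was 0.28 FPKM, and Hist1h2bc, Hist1h1c and Hist1h4h were above 1 FPKM. The exon words found once in the genome also differed between the blocks, with medians of 26.3% and 56.8%, and their part in the levels was not tested. Of the genes elsewhere, 3 of 9 at Hist2, 1 of 2 at Hist3 and 0 of 1 at Hist4 reached 1 FPKM.

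**Figure D3:**
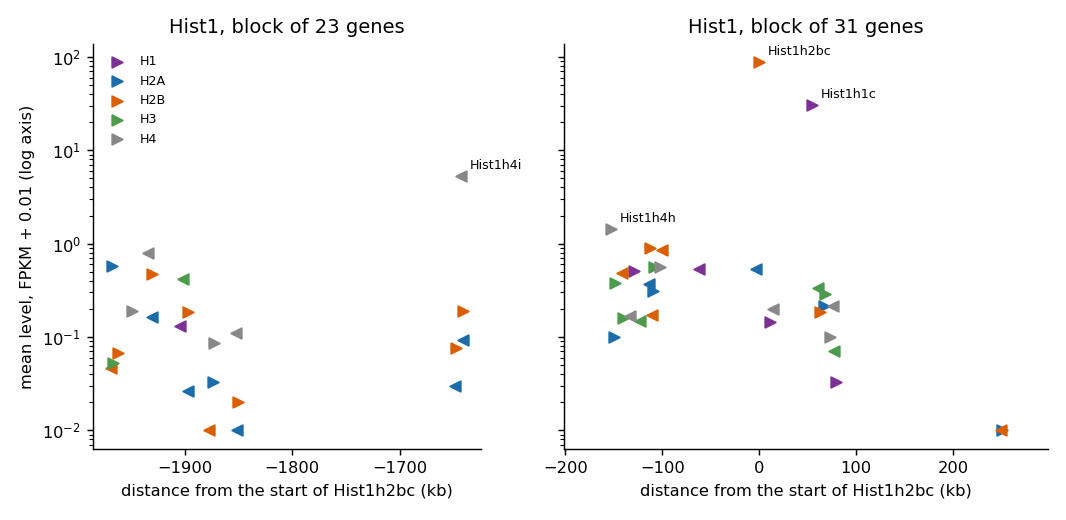
Mean level of the Hist1 genes in FPKM with 0.01 added (log axis) against the distance of each gene from the start of Hist1h2bc in kb, for the blocks of 23 and 31 genes. Triangles point in the direction of the strand and the color gives the histone. Hist1h2bc, Hist1h1c, Hist1h4i and Hist1h4h stand above neighbors that lie below 1 FPKM.

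High genes sat directly beside low ones. There were 12 pairs of an H2A and an H2B gene that start head to head, with 167 to 305 bases between their 5' ends (median 227.5). In 4 of them the means of both genes were under the level of 3 reads, so their order could not be told. Of the other 8, the H2B gene had the higher mean in 6 and the H2A gene in 2. In no pair did both genes reach 1 FPKM. Hist1h2bc and its partner Hist1h2ac, an H2A gene at 0.49, 0.51 and 0.57 FPKM, differed 177, 175 and 152 times. Hist2h2be was paired with the H2A gene Hist2h2ac, which was at 0, 0 and 0.03 FPKM. The annotated transcripts of Hist1h2bc and Hist2h2be end with a poly(A) signal, while those of Hist1h2ac and Hist2h2ac do not. The part of this in the levels was not tested.

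**Figure D4:**
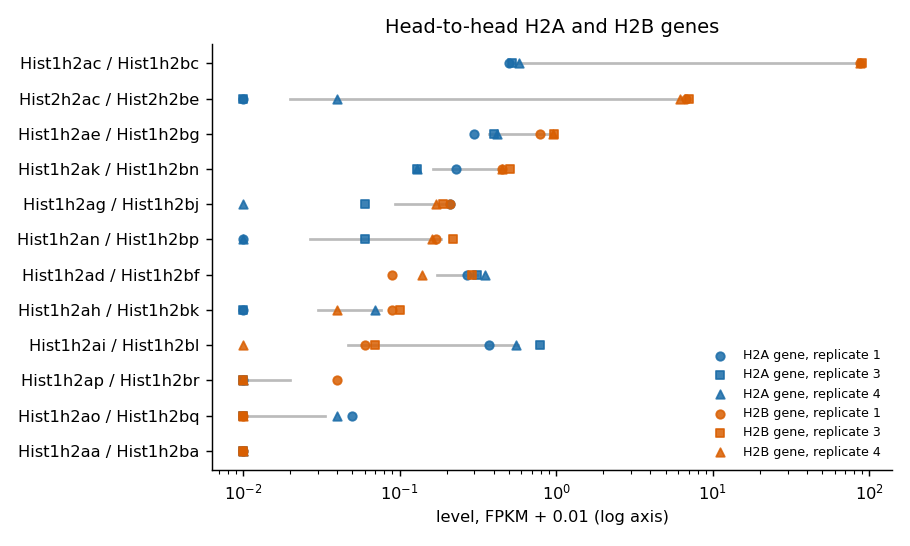
Levels of the 12 head-to-head pairs in FPKM with 0.01 added (log axis), H2A gene in blue and H2B gene in orange, 1 marker shape for each replicate and a gray line between the means. In the top pairs the H2B gene is far above 1 FPKM and its H2A partner is not.

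The 250 bases between the annotated starts of Hist1h2ac (to the left, on the minus strand) and Hist1h2bc (to the right, on the plus strand) are printed because genes so different in level share them. They were read from mm9 on the plus strand, chr13:23775818-23776067. Capitals mark the octamer ATTTGCAT, known from H2B promoters as a site for OCT1, and CCAAT boxes on either strand.

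Hist1h2ac to Hist1h2bc: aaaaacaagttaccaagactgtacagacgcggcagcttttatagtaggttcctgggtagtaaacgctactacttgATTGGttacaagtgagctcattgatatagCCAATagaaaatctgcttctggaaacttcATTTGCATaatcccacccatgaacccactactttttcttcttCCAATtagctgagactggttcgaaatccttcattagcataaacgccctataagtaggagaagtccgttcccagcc

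The octamer ends 109 bases before the last base of this stretch, on the plus strand. A TATAAA on the minus strand lies at its bases 38 to 43, toward Hist1h2ac, and no match overlaps another. In RefSeq promoters (GRCm38.p6, 250 bases before to 50 after the start, both strands), which were matched for 60 of the 67 cluster genes and 10 of the 12 replacement genes, the octamer was held by 7 of 16 H2B and 7 of 17 H2A genes and by none of the H1, H3 and H4 genes, against 1.97% of 27025 promoters. Head-to-head partners share much of this sequence, so their matches are not separate. Of the replacement promoters, 1 of 10 held the octamer. CCAAT was held by 51 of the 60 cluster promoters, 7 of 10 replacement promoters and 41.1% of all. It was in all matched H1, H2A, H2B and H3 promoters and in 3 of 12 for H4. TATAAA was held by 35 of 60 cluster promoters, 1 of 10 replacement promoters and 15.7% of all. The 16 matched H2B genes were all below 1 FPKM. A match is a description of letters only.

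The annotated 3' ends of high and low cluster genes were compared next. A poly(A) signal (AATAAA or ATTAAA, gene strand) in the last 50 bases of an annotated transcript was found for 72.9% of all genes, 11 of the 12 replacement genes and 16 of the 67 cluster genes. Of the 8 cluster genes at 1 FPKM or more, 6 had it, and of the 59 others 10 did. The median level of cluster genes was 0.518 FPKM with the signal and 0.15 FPKM without it. The genes with it were also longer, with a median of 975 against 491 bases, and lower in GC, with medians of 51.8% and 60.7%. Hist2h2aa1 and Hist2h2aa2 were the only genes above 1 FPKM without it. These counts describe annotated ends, since no 3' ends were mapped in these libraries, and the part of length, GC and annotation in them was not tested.

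Many cluster genes are near-identical in sequence, and how reads that fit several genes were treated was not given in the sources used here. The share of 50-base exon words found once in the genome had a median of 52.3% over cluster genes and 95.6% over replacement genes. In 6 cluster genes it was 0, among them Hist2h2aa2 with 50.2, 58.8 and 44.1 estimated reads and Hist2h2aa1 with 23.1, 38.0 and 42.9. Of the 13 cluster genes with at least 80%, 3 reached 1 FPKM and the medians in the libraries were 0.16, 0.15 and 0.2 FPKM. Of the 54 others, 5 reached 1 FPKM and the medians were 0.155, 0.18 and 0.15 FPKM. Which of these groups had the higher median thus differed between libraries, and the part of shared sequence in the levels was not tested. Across the 67 cluster genes, which share their libraries, the rank correlation with the mean level was 0.20 for the unique share, 0.34 for gene length and -0.31 for GC.

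**Figure D5:**
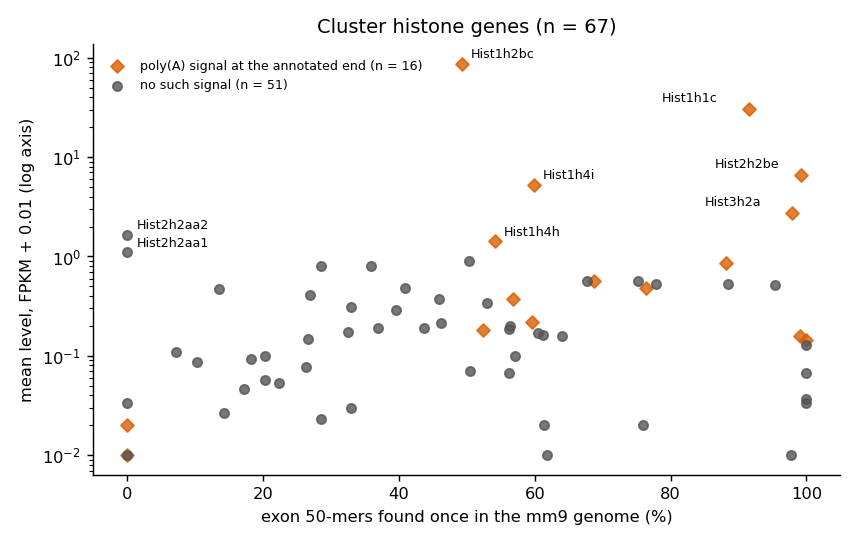
Mean level of the 67 cluster genes in FPKM with 0.01 added (log axis) against the percentage of their exon words of 50 bases found once in mm9. Orange diamonds are the 16 genes with a poly(A) signal at the annotated end and gray circles the other 51. Low genes occur across the whole range of unique shares.

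Spread between libraries was small for most of the higher histone genes. The median coefficient of variation of the 16 members at 1 FPKM or more in every library was 7.86%, against 11.4% for 10011 genes at such levels. H1fx (38.7%), Hist2h2aa2 (31.1%) and Hist1h4h (19.9%) varied most and H2afv (0.22%) least. Replicate 3 was above replicate 4 in 12 of the 16, with a median log2 ratio of 0.38 for 7 cluster genes and 0.13 for 9 replacement genes, against 0.02 for all genes. This ratio moved with GC content. Over the 16 genes, measured in the same pair of libraries, its Pearson correlation with GC was 0.91 and its rank correlation 0.82. H1fx, with 69.8% GC, had a log2 ratio of 1.21, the highest of the 10011 genes. Its log2 ratio of replicate 1 over replicate 4, at 1.01, was also the highest of them. After the trend of all genes with GC was taken out, its ratio of replicate 3 over replicate 4 was 0.26 on the log2 scale. The median of the 7 cluster genes became 0.16, while that of the 9 replacement genes was 0.14 and Hist2h2be went from 0.18 to 0.48. Over 35 cluster genes at 0.1 FPKM or more in every library the median was 0.04 before and -0.15 after that step, so its sign turned. Hist1h2bc, with 50.7% GC, had a log2 ratio of 0.04 before that step.

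Factors that make, process and carry histones were read from a list of 49 symbols, in which Ars2 is an older name of Srrt. All but Ars2 and Supt16 were matched, and of these 47 genes 46 were at 1 FPKM or more and 27 at 10 FPKM or more. These levels were reached by 45.1% and 23.6% of all genes. In 3' end processing, 12 of 13 reached 1 FPKM, led by the scaffold gene Sympk at 68.5 ± 14.6 FPKM, the cap-associated Srrt at 41.8 ± 1.3 FPKM and the cap-binding Ncbp1 at 26.6 ± 1.3 FPKM. Slbp, the stem-loop binding protein, was at 12.05, 9.13 and 15.39 FPKM (12.2 ± 3.1), highest in replicate 4. The lowest were Casp8ap2, the gene of FLASH that joins the U7 particle, at 1.56 ± 0.80 FPKM, Lsm11, a part of the U7 particle that cuts histone pre-mRNA, at 1.31 ± 0.18 FPKM, and the U7-associated Zfp473 at 0.1 ± 0.02 FPKM. All 4 decay genes passed, from the helicase gene Upf1 at 13.8 ± 2.0 FPKM, Tut1 at 9.04 ± 0.87 FPKM and Lsm1 at 8.44 ± 0.09 FPKM to the uridylating Zcchc11 at 4.06 ± 1.55 FPKM.

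All 9 transcription genes passed. The highest were the S-phase kinase Cdk2 at 51.1 ± 6.9 FPKM, the E2F family gene E2f4 at 28.2 ± 0.6 FPKM and the cyclin gene Ccne1 at 21.8 ± 0.7 FPKM. The lowest were Npat, the coactivator of cluster histone genes, at 5.32, 3.73 and 6.99 FPKM (5.35 ± 1.63), Hinfp, which binds H4 promoters, at 3.59 ± 0.52 FPKM and Pou2f1, the gene of OCT1, at 1.33 ± 0.20 FPKM.

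Chaperones were measured in all roles. For cluster histones 8 of 8 passed, with the H3-H4 chaperone Asf1b at 46.0 ± 2.2 FPKM, the CAF-1 subunit Rbbp4 at 37.8 ± 1.5 FPKM and the importin gene Ipo4 at 33.1 ± 6.5 FPKM the highest, and the CAF-1 subunit Chaf1b at 11.3 ± 1.2 FPKM, the H1 and H3-H4 chaperone Nasp at 7.54 ± 1.46 FPKM and the Asf1b relative Asf1a at 4.66 ± 0.56 FPKM the lowest. For variants 13 of 13 passed, a count that includes Cenpa, the gene of a histone variant itself. The highest were Ssrp1, a subunit of FACT, at 81.6 ± 1.9 FPKM, the H2A.Z chaperone Anp32e at 62.7 ± 3.6 FPKM and Hjurp, which loads CENP-A, at 34.5 ± 5.4 FPKM, and the lowest Atrx at 5.80 ± 3.25 FPKM, the H2A.Z remodeler Srcap at 5.71 ± 0.35 FPKM and Ubn2 at 1.61 ± 0.56 FPKM. Hira, which places H3.3 at active genes, was at 7.93 ± 0.79 FPKM. Atrx, which places it at heterochromatin, was at 5.04, 3 and 9.36 FPKM, so its level in replicate 4 was above both others. Cenpa, which encodes the centromeric H3 variant and has a symbol outside the rule, was at 25.5 ± 1.8 FPKM, above the sum of all cluster H3 genes at 3.16 ± 0.24 FPKM.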

How the data were processed

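RNA-seq libraries of 3 melan-a replicates were made by the authors with a stranded mRNA kit. Per the study's methods, reads were trimmed, aligned to mm9 with STAR 2.3.0e, cleared of rRNA reads and counted over Ensembl-annotated transcripts with htseq-count 0.5.3p3. The authors deposited FPKM values after TMM scaling, to 2 decimals. How counts became FPKM was not given in the sources used here. Depth was recovered from genes of up to 350 bases with 1 transcript, where FPKM times length and library size gives whole reads. Among members with 1 transcript, values above 0 and under 30 reads were checked where rounding to 2 decimals was worth less than 0.2 reads, and 100 of 101 came within 0.2 of a whole read. Symbols, positions and transcripts came from GENCODE M1 (Ensembl 65), and 374 genes had none. Stem-loops, poly(A) signals and exon words were read from mm9, and promoters from RefSeq GRCm38.p6. With 1 group, values per library, means and SDs are given without a test. A pseudocount of 1 was used where a log was taken.

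Named genes were the 10 highest cluster genes, replacement genes, germ cell members, the 3 most variable, those next to 1 FPKM, and the 3 highest and lowest factors per role. Others named for H1, head-to-head pairs, gaps in a search, Slbp and Hira were chosen after their values were seen. Members and lists were chosen with earlier results of these data known. Scripts were tested on simulated data. Python 3.11.15, numpy 2.4.6, pandas 2.3.3, scipy 1.17.1 and matplotlib 3.10.9 were used.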

Additional observations from a re-analysis of the deposited data

How the results depend on the processing

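Of 44 alternative settings, 31 moved a result by less than the spread between libraries (counts, by less than 1.5 times), 13 moved it further and 0 reversed it. The difference of -4.04 between cluster and replacement medians became -6.10 with a pseudocount of 0.1, -4.61 over members above 0 in every library, -5.09 with each library rescaled to a sum of 1000000, -4.76 without germ cell members and -3.67 with only cluster genes that have a poly(A) signal. It was -4.21 to -3.91 when each replicate was left out. The count of 8 cluster genes became 42 at a minimum of 0.1 FPKM. It was 7 to 8 when each replicate was left out. The cluster share of 26.9% became 11.4% with FPKM times gene length and 30.5% without H2afx. With FPKM times length the log2 ratio of H3f3b to H3f3a was 1.90 and that of H2afz to H2afv was -1.34. The shift between replicates 3 and 4 of 0.38 became 0.16 after GC correction and 0.041 at a minimum of 0.1 FPKM. With both steps together, which was not among the 44 settings, it was -0.15. The median unique share became 60.4% with words of 90 bases. The poly(A) signal setting and the search after the stop codon were chosen after seeing the data. No paired analysis was possible because the libraries form 1 group.

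Depth limits the low cluster genes, since 37 of the 67 had fewer than 10 estimated reads in every library. The lengths the authors used for genes with several transcripts, of which 12 are members, were not given in the sources used here. These members include H3f3b, H3f3a, H2afv and H2afz, so the values with FPKM times length rest on annotated lengths.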
